A study of Homo sapiens with 36 samples.

Results

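Coregulators of the androgen receptor are proteins that the hormone-bound receptor recruits to chromatin, and 6 of their genes were followed here, 3 coactivator genes of the p160 family (NCOA1, NCOA2 and NCOA3), the corepressor gene NCOR1 and the paired acetyltransferase genes EP300 and CREBBP. The members were the rows of the gene count table whose identifiers match these 6 symbols, 6 of 60676 genes, and all 6 passed the filter on low counts. The counts came from LNCaP, an established androgen-responsive line of human prostate cancer cells, grown in RPMI medium with 10% fetal bovine serum. Cells received DMSO, the vehicle, 3 µM enzalutamide, which blocks the androgen receptor, 3 µM olaparib, which inhibits PARP enzymes, or 3 µM of each drug together. RNA was taken after 8, 24 or 72 h from 3 cultures of each of the 12 groups. All groups are this 1 line in medium with serum, so no group was grown without hormone. Levels come from bulk RNA, in which fewer cells making a transcript and less of it per cell cannot be told apart.

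Upon hormone binding the receptor recruits p160 proteins, which serve as a platform for the acetyltransferases p300 and CBP, the products of EP300 and CREBBP. These acetylate histones at enhancers and promoters, and Mediator and the polymerase follow. NCoR1, the product of NCOR1, works in the other direction, as the scaffold of a histone deacetylase complex around HDAC3. In prostate cancer, high levels of p160 coactivators have been linked to receptor activity at low hormone.

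The promoters of 4 of the genes are shown. NCOA3 and NCOR1 moved in opposite directions under enzalutamide, and EP300 and CREBBP are a pair of related genes. From library to library within groups, this pair had the highest correlation (0.8596). It was not alone in this, since all other pairs varied together as well, NCOA2 and EP300 at 0.7996. EP300 and CREBBP also followed the mean of other long genes within groups (0.8239 and 0.6347). Each promoter runs from 250 bases before to 50 bases after a RefSeq start site on GRCh38.p14. NCOA3 lies at chr20:47501637-47501936 on the plus strand, NCOR1 at chr17:16215485-16215784 on the minus strand, EP300 at chr22:41092342-41092641 on the plus strand and CREBBP at chr16:3880664-3880963 on the minus strand. The start sites of NCOA3, EP300 and CREBBP match the 5′ end of the gene in the count table, and that of NCOR1 lies 2651 bases inside it. Capitals mark the core motif of the transcription factor YY1, ATGGCGGC, on either strand, and would also mark the hexamer of the androgen response element, TGTTCT, which none of the 4 holds.
NCOA3: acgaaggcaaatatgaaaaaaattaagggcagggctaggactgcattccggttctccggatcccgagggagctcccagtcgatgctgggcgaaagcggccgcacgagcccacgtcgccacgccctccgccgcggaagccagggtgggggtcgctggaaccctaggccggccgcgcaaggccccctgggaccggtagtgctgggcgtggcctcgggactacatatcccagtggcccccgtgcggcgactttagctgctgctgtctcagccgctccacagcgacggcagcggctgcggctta
NCOR1: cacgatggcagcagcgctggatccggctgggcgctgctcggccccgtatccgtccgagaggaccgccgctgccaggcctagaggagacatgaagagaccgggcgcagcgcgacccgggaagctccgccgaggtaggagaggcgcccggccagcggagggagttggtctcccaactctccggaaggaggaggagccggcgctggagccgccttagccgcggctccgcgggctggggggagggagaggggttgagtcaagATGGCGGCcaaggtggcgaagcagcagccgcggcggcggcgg
EP300: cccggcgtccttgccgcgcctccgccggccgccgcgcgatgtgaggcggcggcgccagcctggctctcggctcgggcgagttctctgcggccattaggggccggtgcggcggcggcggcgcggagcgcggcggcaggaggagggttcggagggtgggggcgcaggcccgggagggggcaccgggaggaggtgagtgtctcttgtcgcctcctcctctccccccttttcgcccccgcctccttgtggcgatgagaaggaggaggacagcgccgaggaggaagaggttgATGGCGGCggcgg
CREBBP: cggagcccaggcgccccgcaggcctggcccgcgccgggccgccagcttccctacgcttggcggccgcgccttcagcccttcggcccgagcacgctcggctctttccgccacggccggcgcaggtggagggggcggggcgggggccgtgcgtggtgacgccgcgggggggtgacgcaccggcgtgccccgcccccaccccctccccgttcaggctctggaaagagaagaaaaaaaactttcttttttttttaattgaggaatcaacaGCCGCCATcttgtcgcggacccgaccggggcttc

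The YY1 core began 8 bases after the start site in NCOR1, 37 bases after it in EP300 and, on the reverse strand, 16 bases after it in CREBBP. It was not in the promoter windows of NCOA3 or NCOA1, and 3.00% of 35116 RefSeq promoters of this length hold it. The androgen hexamer was in none of the 5 windows searched, those 4 and NCOA1, against 14.8% of all promoters. CREBBP held the core of the cAMP response element, TGACG, at 97 and 81 bases before its start, a motif in 24.6% of promoters. The GC box, GGGCGG, matched 3 times each in NCOA1 and CREBBP and was in 44.95% of promoters. GC content ran from 66.7% in NCOA3 to 75.3% in EP300. These are letter matches and no binding was measured.

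The 36 libraries held 4.15 to 15.4 M counts, and the 6 genes had between 122 counts (the lowest library of NCOA3) and 3912 counts (the highest library of NCOR1). All 8 luminal prostate markers were above 1 CPM (counts scaled to library size) on average, and the 4 blood markers, with KRT5 and TP63 of basal epithelium, were below 1 CPM in every library. The third basal marker, KRT14, was below 1 CPM on average but not in every library. Of 4 stromal markers 1, COL1A1, had a mean of at least 1 CPM, and the 4 summed to 12.6 to 29.8 CPM per library. Of 3 endothelial markers 1, VWF, did so, and the 3 summed to 2.80 to 10.3 CPM. The receptor's target gene KLK3, which encodes prostate-specific antigen, fell by 6.67 ± 0.14 on the log2 scale with enzalutamide at 72 h (adjusted p 1.9e-30), and the p53 target CDKN1A rose by 1.62 ± 0.06 (adjusted p 7.4e-21) with olaparib. DMSO 72 h replicate 1 stood apart, with 1.54% mitochondrial counts against 3.97% to 7.05% in the other 35 libraries and the largest spread around its group mean (SD 0.236 on the log2 scale, against 0.161 in the next library). All 6 genes were below their group mean in it, as they were in 4 other libraries (DMSO 8 h replicate 3, DMSO 24 h replicate 2, olaparib 24 h replicate 1 and combination 72 h replicate 3). Calls of the 6 genes against DMSO at 72 h are also given without DMSO 72 h replicate 1 where that changed them. Those of other genes are given only from the fit of all libraries.

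Compared per kilobase of exon, NCOR1 was the most abundant of the 6 with a mean over libraries of 15.02 CPM per kb, followed by EP300 at 13.98, NCOA2 at 10.5, CREBBP at 8.30, NCOA1 at 6.46 and NCOA3 at 5.18. NCOA3, the least abundant, also varied most between groups. Its highest group mean was 2.04 times its lowest, while for the other 5 genes this ratio was 1.33 to 1.42. DMSO at 72 h was the lowest of the 12 groups for NCOA1, NCOA2, NCOA3, EP300 and CREBBP, and the combination at 72 h was the highest for NCOA1, NCOA2, NCOA3 and CREBBP. NCOR1 had another order, highest with olaparib at 8 h and lowest with enzalutamide at 72 h. With the 12 groups ordered by mean, most neighbours in the order overlapped for each of the 6 genes, so these orders are a description.

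**Figure D1:**
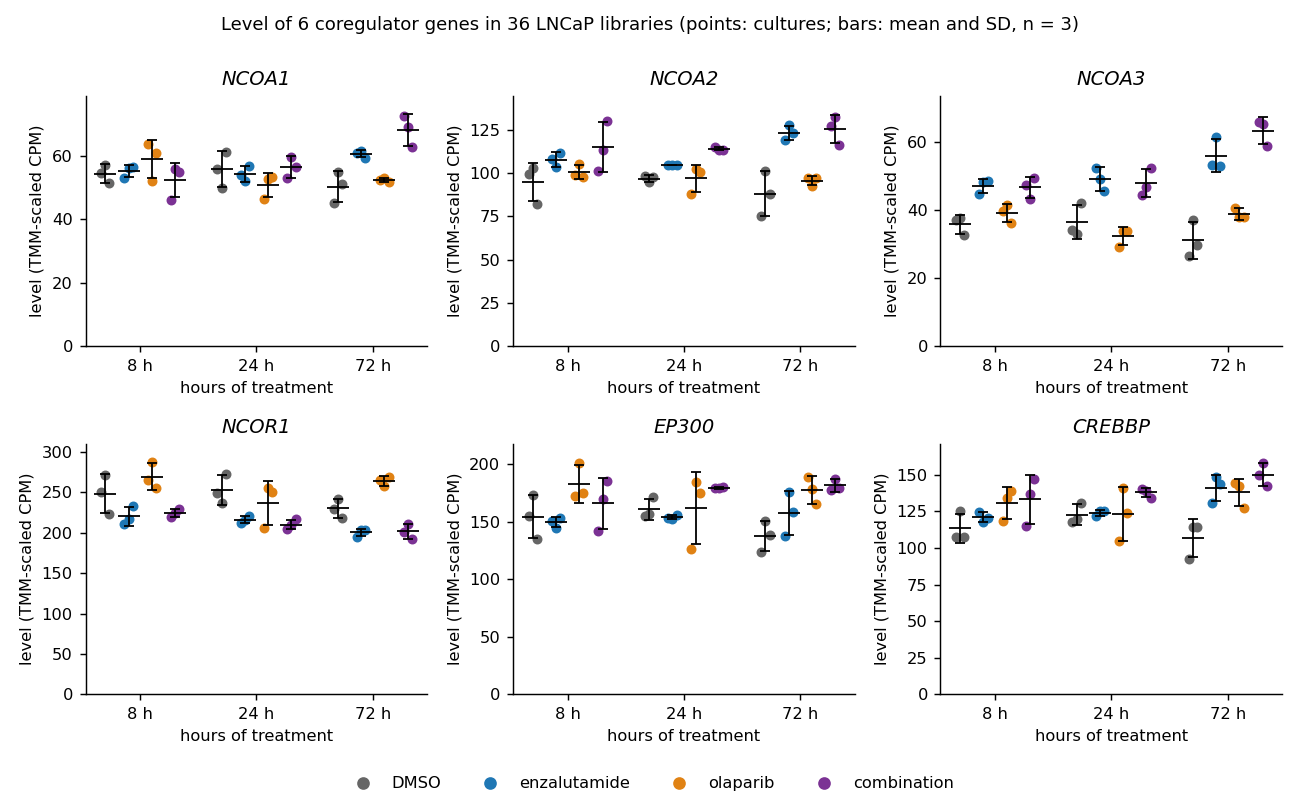
Level of each gene (TMM-scaled CPM, linear axis from 0) in every library, grouped by hour and coloured by treatment; points are cultures, and bars are the mean and SD of 3. NCOA3 is higher in every enzalutamide and combination culture than in DMSO of the same hour, and NCOR1 is lower in every such culture at 24 and 72 h.

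NCOA3, also known as AIB1 or SRC-3, is a coactivator whose gene is amplified in some breast cancers, and it rose with enzalutamide at every hour. Its level at 8 h was 37.1, 37.5 and 32.6 CPM in the 3 DMSO cultures and 44.6, 48.05 and 48.5 CPM in the enzalutamide cultures. At 24 h the DMSO cultures had 34.2, 33.03 and 42.03 CPM and the enzalutamide cultures 52.4, 49.1 and 45.5 CPM. At 72 h the values were 26.5, 36.95 and 29.8 CPM against 53.03, 61.4 and 52.99 CPM. The groups did not overlap at any hour, and the gap was widest at 72 h, when the DMSO mean was 31.1 ± 5.34 and the enzalutamide mean 55.8 ± 4.83 CPM (SD, n = 3). The log2 fold change was 0.38 ± 0.10 (adjusted p 0.014) at 8 h, 0.44 ± 0.09 (adjusted p 5.5e-04) at 24 h and 0.79 ± 0.10 (adjusted p 4.0e-08) at 72 h (± standard error, edgeR's quasi-likelihood test adjusted over 15744 genes). The change of the effect from 8 h to 72 h, tested as an interaction, was 0.41 ± 0.14 (adjusted p 0.048). Without DMSO 72 h replicate 1 it was 0.33 (adjusted p 0.12), and of the 12 libraries it rests on, leaving out any 1 other than DMSO 8 h replicate 3 or DMSO 72 h replicate 2 ended the call.

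Both drugs together gave NCOA3 levels of 47.2, 43.3 and 49.5 CPM at 8 h, 44.4, 46.7 and 52.4 CPM at 24 h and 65.8, 65.2 and 58.7 CPM at 72 h. Every one of these 9 cultures lay above the DMSO cultures of its hour. The log2 fold changes were 0.36 ± 0.10 (adjusted p 0.016), 0.41 ± 0.10 (adjusted p 0.0012) and 0.98 ± 0.10 (adjusted p 1.8e-10), the last of them a 1.97-fold rise and the largest change of any of the 6 genes against DMSO. With olaparib alone NCOA3 stood at 39.6, 41.3 and 36.2 CPM at 8 h and 29.2, 33.9 and 33.7 CPM at 24 h, ranges that overlapped those of DMSO, and no change was called (0.11 ± 0.10 with adjusted p 0.68, and -0.16 ± 0.10 with adjusted p 0.66). At 72 h olaparib gave 40.7, 37.8 and 37.8 CPM, just above the highest DMSO culture, and a call of 0.28 ± 0.10 (adjusted p 0.046). Without DMSO 72 h replicate 1 it was 0.20 (adjusted p 0.21), and the call was also lost without DMSO 72 h replicate 3 or any 1 olaparib culture. The rise with enzalutamide at 8 h was lost without DMSO 8 h replicate 3 or enzalutamide 8 h replicate 2 or 3, and that with the combination at 8 h without DMSO 8 h replicate 3 or combination 8 h replicate 1 or 3 (highest adjusted p 0.067 and 0.071).

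NCOA2, the p160 coactivator also known as GRIP1 or TIF2, was called higher with enzalutamide at 72 h. At 72 h its level was 75.2, 101 and 87.8 CPM in DMSO, 119, 127 and 123 CPM with enzalutamide and 127, 132 and 116 CPM with both drugs. Neither drugged group overlapped DMSO, and the log2 fold changes were 0.46 ± 0.08 (adjusted p 2.9e-05) and 0.49 ± 0.08 (adjusted p 6.7e-06). Olaparib alone left it at 96.9, 92.4 and 97.04 CPM, inside the DMSO range (0.09 ± 0.08, adjusted p 0.48). At 8 and 24 h enzalutamide alone gave 0.18 ± 0.08 (adjusted p 0.35) and 0.11 ± 0.08 (adjusted p 0.35), neither called, although the groups did not overlap at either hour. The change of its effect from 8 h to 72 h was 0.28 ± 0.11 (adjusted p 0.11), so a difference between these hours was not called. The combination was called higher at 24 h (0.24 ± 0.08, adjusted p 0.029), with cultures at 115, 113 and 113 CPM against 98.1, 94.5 and 97.7 CPM in DMSO. Its call at 8 h (0.26 ± 0.08, adjusted p 0.049) came with overlapping groups and a difference below 0 in 1 of the 3 lanes. The 24 h call was lost without any 1 of its 6 libraries and the 8 h call without 4 of 6 (DMSO replicates 1 and 3, combination replicates 2 and 3).

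NCOA1, or SRC-1, the first p160 coactivator to be described, had the smallest log2 fold changes of the 3 at 72 h. It had 45.02, 54.8 and 50.97 CPM in DMSO at 72 h, 60.98, 61.5 and 59.4 CPM with enzalutamide, 52.2, 53.00 and 51.6 CPM with olaparib and 72.5, 68.9 and 62.8 CPM with both. The combination cultures were the highest 3 of the 12 at that hour. The rise was 0.25 ± 0.08 (adjusted p 0.021) with enzalutamide and 0.41 ± 0.08 (adjusted p 1.0e-04) with the combination, while olaparib gave 0.04 ± 0.08 (adjusted p 0.81). Without DMSO 72 h replicate 1 the enzalutamide call was 0.19 (adjusted p 0.11), and it was also lost without enzalutamide 72 h replicate 1 or 2. At 8 and 24 h none of the 3 treatments was called, with log2 fold changes from -0.13 to 0.10. The effect of the combination grew from 8 h to 72 h by 0.48 ± 0.12 (adjusted p 0.0024), as did that on NCOA3 by 0.62 ± 0.14 (adjusted p 0.0010), and both remained called without any 1 library. With the rise of NCOA3 under enzalutamide, that made 1 of the 6 for enzalutamide, 0 for olaparib and 2 for the combination whose effect changed between these hours, against 10.2%, 9.71% and 22.9% of all genes. For olaparib there were also 0 by DESeq2 and 0 at an unadjusted p below 0.05, which 3768 of 15744 genes had. For NCOA2 the change under the combination was 0.23 ± 0.11 (adjusted p 0.15).

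Of the summed per-base level of the 3 genes, NCOA3 made up 21.2% ± 0.3097 in DMSO and 24.6% ± 0.724 with enzalutamide at 8 h (SD, n = 3). At 72 h the share was 20.1% ± 0.858 in DMSO, 25.5% ± 1.17 with enzalutamide, 22.8% ± 0.632 with olaparib and 26.9% ± 0.125 with both. The share of NCOA1 was 31.9% ± 1.28 in DMSO and 28.2% ± 0.735 with both drugs at 72 h, and NCOA2 kept the largest share, between 44.8% and 49.9% in all 12 groups. NCOA3 shares 96 exon bases with SULF2 on the opposite strand, and SULF2 had 4.298% as many counts as NCOA3, so with counting that ignores strand a small part of the NCOA3 counts is uncertain.

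NCOR1, the corepressor, fell with enzalutamide. At 8 h it had 251, 271 and 223 CPM in DMSO and 211, 218 and 234 CPM with enzalutamide, which overlapped, and the log2 fold change was -0.17 ± 0.07 (adjusted p 0.23). At 24 h the values were 249, 237 and 273 CPM against 212, 215 and 221 CPM, and at 72 h 229.9, 242 and 219 CPM against 196, 203 and 203 CPM. At both later hours the enzalutamide cultures lay below every DMSO culture, with log2 fold changes of -0.22 ± 0.07 (adjusted p 0.015) and -0.20 ± 0.07 (adjusted p 0.026), a fall to 0.86 and 0.87 times the DMSO level. The combination gave 205, 209 and 217 CPM at 24 h and 201, 211 and 193 CPM at 72 h, again below all DMSO cultures (-0.26 ± 0.07 with adjusted p 0.0039, and -0.19 ± 0.07 with adjusted p 0.024). Of these 4 falls, the one with the combination at 24 h kept its call without any 1 library, and each of the others was lost without 3 of 6. These were DMSO replicate 3 and enzalutamide replicates 1 and 2 for enzalutamide at 24 h (highest adjusted p 0.11), DMSO replicate 2 and enzalutamide replicates 1 and 3 at 72 h (0.12), and DMSO replicate 2 and combination replicates 1 and 3 for the combination at 72 h (0.14).

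Olaparib moved NCOR1 the other way at 72 h. The olaparib cultures had 266, 258 and 269.7 CPM, all above the DMSO cultures, and the change was 0.20 ± 0.07 (adjusted p 0.041), though it was 0.19 (adjusted p 0.077) without DMSO 72 h replicate 1 and was also lost without DMSO replicate 3 or any 1 olaparib culture. At 8 and 24 h olaparib gave 0.12 ± 0.07 (adjusted p 0.48) and -0.09 ± 0.07 (adjusted p 0.72). Its culture values were 266, 288 and 256 CPM at 8 h and 206, 255 and 250.1 CPM at 24 h, where replicate 1 was low for all 6 genes. NCOR1 shares exon bases on the opposite strand with PIGL (321 bases), TTC19 (248 bases) and a gene without a symbol (188 bases), and TTC19 had 39.3% as many counts as NCOR1, so with counting that ignores strand its level is uncertain.

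CREBBP and EP300, whose products CBP and p300 share their acetyltransferase, bromodomain and zinc finger domains, were called higher with olaparib and with the combination at 72 h, and CREBBP also with enzalutamide. CREBBP had 92.2, 114 and 115 CPM in DMSO, 131, 148 and 144 CPM with enzalutamide, 144, 143 and 127 CPM with olaparib and 149.8, 158 and 143 CPM with both. All 9 treated cultures were above all 3 DMSO cultures. The log2 fold changes were 0.38 ± 0.09 (adjusted p 0.0010) with enzalutamide, 0.36 ± 0.09 (adjusted p 0.0039) with olaparib and 0.48 ± 0.09 (adjusted p 3.9e-05) with both, and these 3 calls held without any 1 library. At 8 h its cultures had 108, 125 and 107 CPM in DMSO, 125, 118 and 120.4 with enzalutamide, 118, 134 and 139 with olaparib and 115, 137 and 147 with both, and all 3 treated groups overlapped DMSO. At 8 and 24 h none was called, with log2 fold changes from 0.01 to 0.22.

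EP300 had 124, 151 and 138 CPM in DMSO at 72 h, 138, 176 and 158 CPM with enzalutamide, 189, 178 and 165 CPM with olaparib and 178, 187 and 179 CPM with both. Here the enzalutamide cultures overlapped DMSO and the other treated groups did not. Olaparib gave 0.36 ± 0.10 (adjusted p 0.011) and the combination 0.39 ± 0.10 (adjusted p 0.0020), while enzalutamide alone was not called (0.18 ± 0.10, adjusted p 0.20). Without DMSO 72 h replicate 1 the olaparib call was 0.30 (adjusted p 0.057), and it was also lost without olaparib 72 h replicate 1. At 8 h EP300 had its highest group mean of the 12, with olaparib, at 183 ± 16.1 CPM against 154 ± 19.01 CPM in DMSO (SD, n = 3). The groups overlapped there and the change of 0.24 ± 0.10 (adjusted p 0.28) was not called, with an unadjusted p of 0.023. No change of effect from 8 h to 72 h was called for either gene, with 0.12 ± 0.14 with adjusted p 0.67 for EP300 and 0.15 ± 0.13 with adjusted p 0.50 for CREBBP under olaparib. At 24 h the olaparib cultures were spread widely, at 126, 184 and 175 CPM, and the combination cultures narrowly, at 179, 179 and 180.4 CPM against 155, 156 and 171 CPM in DMSO. No change was called at that hour, with 0.01 ± 0.10 (adjusted p 0.99) for olaparib and 0.16 ± 0.10 (adjusted p 0.28) for the combination. Per base of exon, EP300 stood at 171% ± 9.79 of CREBBP in DMSO at 72 h and 147% ± 8.82 with enzalutamide (SD, n = 3). EP300 shares 107 exon bases with an antisense gene that had 4 counts in all libraries together.

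**Figure D2:**
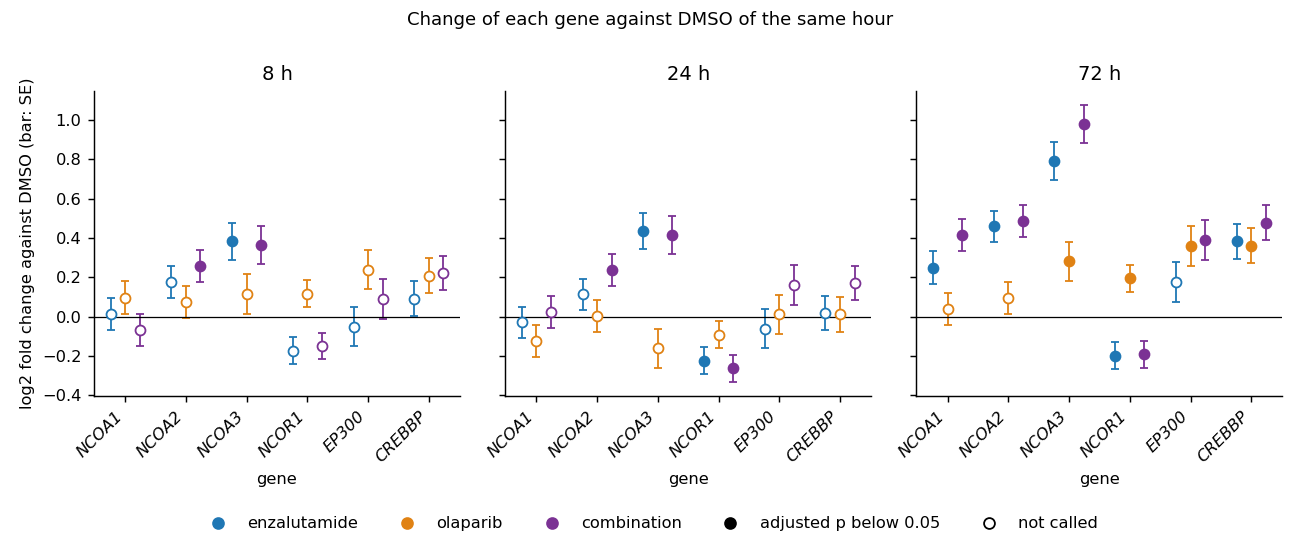
Log2 fold change against DMSO of the same hour for each gene and treatment, with standard errors; filled points passed an adjusted p of 0.05. NCOA3 is called higher with enzalutamide and the combination at all 3 hours, NCOR1 is called lower with both at 24 and 72 h, and most other calls are at 72 h.

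Counted over the 6 genes, enzalutamide changed 1 at 8 h (higher), 2 at 24 h (1 higher, 1 lower) and 5 at 72 h (4 higher, 1 lower). Over all 15744 genes tested, 3.02%, 18.8% and 27.2% were called at these hours, and 1.09% were called higher at 8 h. Olaparib changed none at 8 or 24 h by edgeR or DESeq2, with 2 and 0 of the 6 at an unadjusted p below 0.05, and 4 at 72 h, all higher, against 1.32%, 1.12% and 17.9% of all genes, and 8.22% called higher at 72 h. An unadjusted p below 0.05 with olaparib was found for 2057 genes of 15744 at 8 h and 1440 at 24 h. The combination changed 2 at 8 h (both higher), 3 at 24 h (2 higher, 1 lower) and all 6 at 72 h (5 higher, 1 lower), against 5.98%, 21.6% and 42.5%, with 2.13% called higher at 8 h. The median log2 fold change of the 6 at 72 h was 0.32 with enzalutamide, 0.24 with olaparib and 0.45 with both, where the median of all genes was -0.01 in each. Of the 23 calls against DMSO, 22 had the same sign in all 3 sequencing lanes. Each lane holds 1 culture of each group, so these are differences between the cultures that gave the calls. They are no separate support. When each contrast was fitted on its own 6 libraries, the count with olaparib at 72 h went from 4 to 0 and that with enzalutamide at 72 h from 5 to 3.

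What the second drug added was asked by setting the combination against each single drug. Against olaparib alone, NCOA3 was higher by 0.58 ± 0.10 (adjusted p 3.5e-05) at 24 h and 0.70 ± 0.09 (adjusted p 1.5e-07) at 72 h, and NCOR1 was lower, by -0.27 ± 0.07 (adjusted p 0.023) at 8 h and -0.39 ± 0.07 (adjusted p 2.2e-05) at 72 h. NCOA2 was higher by 0.24 ± 0.08 (adjusted p 0.045) at 24 h and 0.39 ± 0.08 (adjusted p 1.5e-04) at 72 h, and NCOA1 by 0.38 ± 0.08 (adjusted p 3.4e-04) at 72 h. In all, 1 of the 6 was called at 8 h, 2 at 24 h and 4 at 72 h, against 2.19%, 13.6% and 34.2% of all genes. The 8 h call was lower, against 1.43%, and the 24 h calls higher, against 5.9%. All 7 had the same sign in the 3 lanes, which hold the cultures that gave the calls. EP300 and CREBBP did not differ at 72 h beyond their error (0.03 ± 0.10 with adjusted p 0.86, and 0.12 ± 0.09 with adjusted p 0.32). The NCOR1 call at 8 h was lost without olaparib 8 h replicate 2 or combination 8 h replicate 1 or 2, and the NCOA2 call at 24 h without 5 of its 6 libraries, the exception being olaparib 24 h replicate 2.

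Against enzalutamide alone none of the 6 was called at 8, 24 or 72 h by DESeq2 or by the edgeR fit over all libraries, where 0.654%, 1.92% and 14.5% of all genes were. At an unadjusted p below 0.05 there were 0, 1 and 3 of the 6, beside 1319, 2032 and 4262 of 15744 genes. An edgeR fit of only the libraries compared called 1 at 24 h and 1 at 72 h, and one without the filter on low counts called 1 at 72 h. At 72 h the differences were 0.17 ± 0.08 (adjusted p 0.18) for NCOA1, 0.19 ± 0.09 (adjusted p 0.17) for NCOA3 and 0.21 ± 0.10 (adjusted p 0.16) for EP300. The 95% interval for NCOA3 was 0.00 to 0.38. NCOR1 differed by 0.01 with an interval of -0.13 to 0.15. The interaction of the drugs, that is the combination effect less the effects of enzalutamide and of olaparib on the log2 scale, was called for none of the 6 at any hour, with 0%, 0% and 2.26% of all genes called and 0, 0 and 1 of the 6 at an unadjusted p below 0.05, again with none by DESeq2. That unadjusted p was found for 681, 959 and 2292 of 15744 genes at 8, 24 and 72 h. The widest departures at 72 h were -0.27 ± 0.12 (adjusted p 0.31) for CREBBP and -0.19 ± 0.10 (adjusted p 0.38) for NCOR1. Because the combination and the single drugs share the DMSO cultures, these contrasts are not independent of one another.

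The ratio of NCOA3 to NCOR1 separated the cultures by enzalutamide. NCOA3 alone did so too, by a narrow gap, with every culture given enzalutamide above every culture without it. The opposite movement of NCOR1 was thus not needed for this separation. Neither NCOR1 alone nor NCOA2 alone separated the cultures over all hours. Per base of exon, NCOA3 stood at 27.03%, 25.3% and 26.8% of NCOR1 in the DMSO cultures at 8 h and at 38.8%, 40.4% and 37.95% with enzalutamide. At 72 h the values were 21.1%, 27.9% and 24.9% in DMSO, 49.6%, 55.2% and 47.7% with enzalutamide, 28.02%, 26.9% and 25.6% with olaparib and 59.8%, 56.5% and 55.8% with both. Over all hours, the 18 libraries without enzalutamide lay between 21.1% and 28.2% and the 18 with it between 35.3% and 59.8%. Group means went from 39.04% ± 1.23 at 8 h to 41.5% ± 3.797 at 24 h and 50.9% ± 3.89 at 72 h with enzalutamide, and from 38.02% ± 2.34 to 41.6% ± 2.37 and 57.4% ± 2.17 with both drugs (SD, n = 3). In DMSO they were 26.4% ± 0.932, 26.3% ± 1.69 and 24.6% ± 3.39. NCOA2 over NCOR1 showed the same separation, at 50.4% to 65.8% without enzalutamide and 70.9% to 97.3% with it. These ratios were formed after the changes of both genes had been seen and are given as a description.

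**Figure D3:**
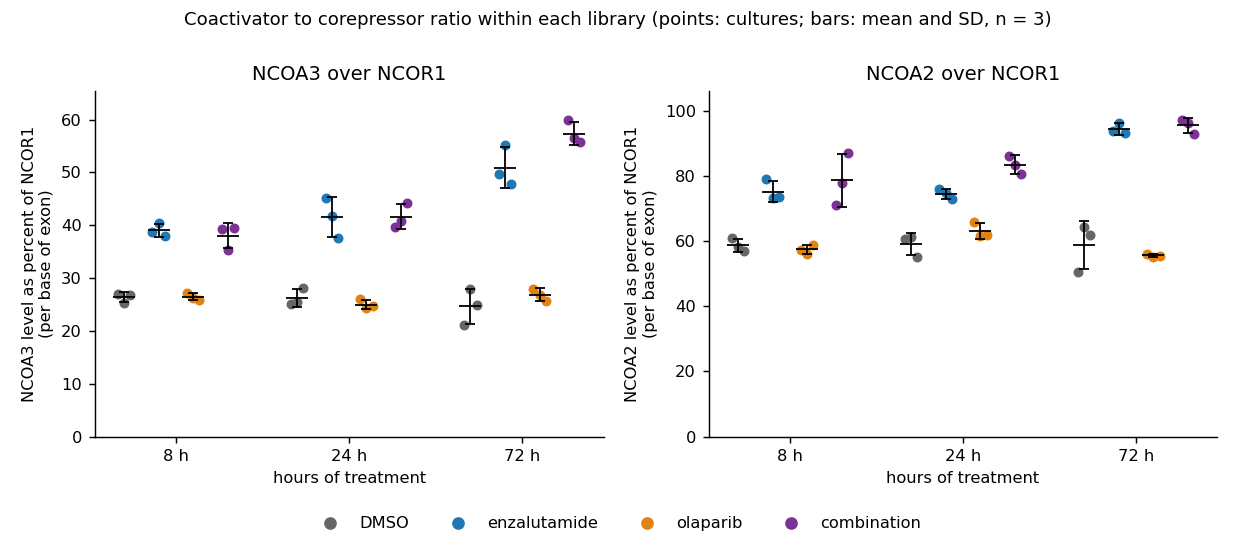
NCOA3 (left) and NCOA2 (right) as a percentage of NCOR1 per base of exon, within each library, by hour and treatment; points are cultures, bars the mean and SD of 3, and the axes start at 0. The libraries with enzalutamide, alone or combined, all lie above those without it in both panels.

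From library to library the 6 genes varied together. After subtraction of group means, the correlation between pairs of the genes over 36 libraries ran from 0.457 (NCOA3 and CREBBP) to 0.8596 (EP300 and CREBBP). All 6 have over 8000 bases of exon, and their mean followed that of 2915 other genes of that length with a correlation of 0.876 within groups. Genes of 1 library share its depth and RNA quality, and these values are a description. Over the 12 group means the correlation was 0.900 for the mean of the 6, and by gene it lay between 0.725 and 0.801 for all but NCOR1, which had -0.287. The group means of the long genes ran from -0.0718 in DMSO at 72 h to 0.0577 with the combination at 72 h, on the log2 scale relative to all libraries. At 72 h, 20.3% of the long genes were called higher with enzalutamide, 14.8% with olaparib and 32.8% with the combination, against 12.7%, 8.22% and 20% of all genes.

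**Figure D4:**
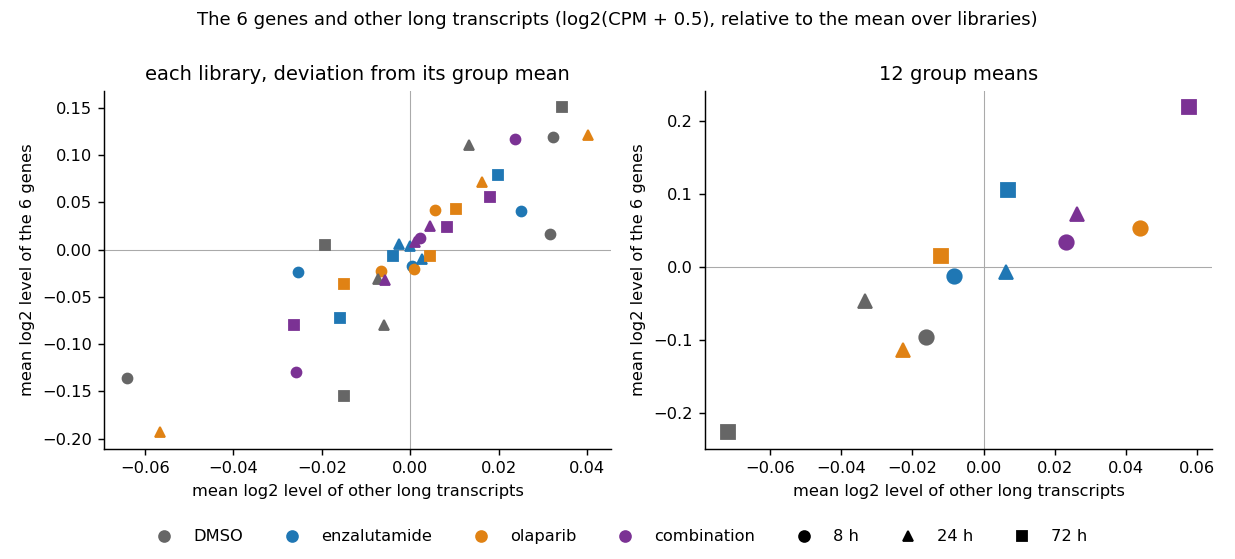
Mean log2(CPM + 0.5) of the 6 genes against that of 2915 other long transcripts, as deviations from the group mean for 36 libraries (left) and as 12 group means (right), coloured by treatment and shaped by hour. In both panels the mean of the 6 genes follows that of the other long transcripts, though NCOR1 by itself does not over the group means (correlation -0.287). DMSO at 72 h and the combination at 72 h are the lowest and highest group means.

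With the long-transcript level of each library added to the fit, a choice made after seeing the data, 10 of the 23 calls against DMSO were kept, 5 of NCOA3, 4 of NCOR1 and 1 of NCOA2, 13 were lost and 3 were gained. NCOA3 with enzalutamide was 0.38 (adjusted p 0.0014) at 8 h, 0.31 (adjusted p 0.0052) at 24 h and 0.56 (adjusted p 3.2e-05) at 72 h, and with the combination 0.27 (adjusted p 0.038), 0.22 (adjusted p 0.080) and 0.58 (adjusted p 4.9e-04). NCOR1 with enzalutamide was -0.19 (adjusted p 0.013), -0.33 (adjusted p 3.4e-06) and -0.41 (adjusted p 1.3e-06), and with the combination -0.25 (adjusted p 8.0e-04), -0.42 (adjusted p 1.4e-07) and -0.54 (adjusted p 5.5e-07). NCOR1 was thus called lower at all 3 hours in both, and NCOA3 higher in 5 of 6 comparisons. With olaparib at 72 h neither kept its call, at 0.10 (adjusted p 0.58) for NCOA3 and 0.04 (adjusted p 0.75) for NCOR1. For CREBBP at 72 h the values became 0.17 (adjusted p 0.20) with enzalutamide, 0.19 (adjusted p 0.15) with olaparib and 0.11 (adjusted p 0.53) with both. EP300 became 0.11 (adjusted p 0.41) with olaparib and changed sign with the combination, to -0.15 (adjusted p 0.30). With enzalutamide at 24 h EP300 was called lower, at -0.23 (adjusted p 0.013), where the fit without this term gave -0.06 and no call. For NCOA2 the combination calls at 8 and 24 h became 0.15 (adjusted p 0.14) and 0.05 (adjusted p 0.69). At 72 h NCOA2 kept its call with enzalutamide, 0.22 (adjusted p 0.018), and not with the combination, 0.09 (adjusted p 0.55), and NCOA1 lost both, 0.08 (adjusted p 0.58) and 0.13 (adjusted p 0.46). The long-transcript level differed between the groups, so its part in these changes and that of the drugs cannot be told apart.

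Among 13 other measured coactivators and p160 partners, enzalutamide raised 1 and lowered 1 at 8 h, 2 and 2 at 24 h, and 4 and 1 at 72 h, and the combination raised 8 and lowered 3 at 72 h. Of all genes 3.02%, 18.8% and 27.2% were called with enzalutamide at these hours and 42.5% with the combination at 72 h. The list median at 72 h was 0.03 with enzalutamide and 0.16 with the combination, beside -0.01 for all genes in both. NCOA7, a coactivator of other nuclear receptors outside the p160 family, rose by 0.57 ± 0.07 (adjusted p 1.1e-07), 0.84 ± 0.06 (adjusted p 5.5e-13) and 1.23 ± 0.07 (adjusted p 1.0e-17) with enzalutamide, more than any of the 6 at each hour. CITED2, which binds p300 and CBP, rose by 1.18 ± 0.08 (adjusted p 6.8e-15) with enzalutamide and 1.42 ± 0.08 (adjusted p 2.2e-17) with both at 72 h. The arginine methyltransferase gene PRMT1, whose product modifies histones beside p160 proteins, fell by 0.34 ± 0.05 (adjusted p 4.4e-07) with the combination at 72 h. Of 7 other lysine acetyltransferase genes, 2 rose with enzalutamide at 72 h, KAT6B by 0.26 ± 0.09 (adjusted p 0.040) and KAT7 by 0.23 ± 0.06 (adjusted p 0.0043), and 2 rose with olaparib, KAT7 by 0.24 ± 0.06 (adjusted p 0.0071) and KAT2A by 0.21 ± 0.06 (adjusted p 0.018). At 72 h 27.2% of all genes were called with enzalutamide and 17.9% with olaparib, with 12.7% and 8.22% called higher.

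Of 11 other corepressor genes measured, 3 fell and none rose with the combination at 24 h, and 5 fell and 2 rose at 72 h, where 21.6% and 42.5% of all genes were called. The list medians were -0.11 and -0.13, beside 0.01 and -0.01 for all genes. HDAC3, the deacetylase of the NCoR1 complex, was -0.22 ± 0.06 (adjusted p 0.0099) at 24 h, CORO2A, a further subunit of that complex, -0.31 ± 0.09 (adjusted p 0.0097) at 24 h and -0.59 ± 0.10 (adjusted p 4.0e-06) at 72 h, and HDAC2 -0.44 ± 0.07 (adjusted p 1.5e-06) at 72 h. NRIP1, which encodes the corepressor RIP140, went the other way, by 0.60 ± 0.08 (adjusted p 1.2e-07) with enzalutamide, 0.54 ± 0.08 (adjusted p 2.9e-06) with olaparib and 0.78 ± 0.08 (adjusted p 1.9e-10) with both at 72 h. Enzalutamide lowered 2 of the list at 24 h, TBL1X by 0.23 ± 0.06 and KDM1A by 0.16 ± 0.05, and at 72 h raised 2 and lowered 3. Of all genes 18.8% and 27.2% were called with enzalutamide at these hours, so 2 of 11 at 24 h is near the share of all genes.

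Mediator and BET bromodomain genes, which act after the acetyltransferases, rose at 72 h in 4, 5 and 6 of 10 with enzalutamide, olaparib and the combination, and fell in 1, 0 and 1. Of all genes 12.7%, 8.22% and 20% were called higher in these comparisons. MED13 was 0.47 ± 0.11 (adjusted p 9.7e-04), 0.35 ± 0.11 (adjusted p 0.022) and 0.65 ± 0.11 (adjusted p 6.4e-06) in these comparisons. Of 10 SWI/SNF genes, which encode a chromatin remodelling complex, 5 rose with enzalutamide at 72 h, SMARCE1 most at 0.61 ± 0.13 (adjusted p 5.7e-04), and 3 rose and 2 fell with the combination. The shares of all genes were 12.7% called higher with enzalutamide and 42.5% called in either direction with the combination. Among 10 receptor chaperone genes FKBP5, itself a target of the receptor, fell by 0.70 ± 0.07 at 8 h (adjusted p 4.4e-10) and 1.03 ± 0.07 at 72 h (adjusted p 4.2e-15) with enzalutamide. The cochaperone gene PTGES3 fell by 0.51 ± 0.05 (adjusted p 2.7e-10) with the combination at 72 h. With the combination at 72 h, 5 of the 10 chaperone genes fell and 1 rose, where 42.5% of all genes were called. Over all 61 genes of these lists at 72 h, 18 rose and 8 fell with enzalutamide, 19 and 2 with olaparib and 22 and 17 with the combination, where 27.2%, 17.9% and 42.5% of all genes were called in either direction. Calls of listed genes are from the fit of all libraries without the long-transcript term. Over all genes, the olaparib count at 72 h ran from 1829 to 3525 with 1 library left out, and was 1405 with that term.

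Over the 12 group means, the genes whose pattern was most like that of each member, among 9360 genes with a mean of at least 10 CPM, were SAMD12 (Pearson r 0.982) and SLC25A17 (0.974) for NCOA3, CDK8 (0.976) and CPEB4 (0.972) for NCOA2, and ZHX2 (0.928) for NCOA1. For NCOR1 they were ELK4 (0.967) and MIDEAS (0.964), for EP300 ZFHX3 (0.945) and SRRM2 (0.932), and for CREBBP SIK2 (0.964) and ASH1L (0.956). CDK8 encodes a kinase of Mediator and ASH1L a histone methyltransferase. Among the members themselves, NCOA2 and NCOA3 had the highest such correlation (0.945), and NCOA2 and NCOR1 the lowest (-0.752). These coefficients are over 12 points that share libraries and are given without a test.

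Time in culture without drug changed none of the 6 by edgeR or DESeq2, and none had an unadjusted p below 0.05. Of 15744 genes, 1585 had such a p from 8 h to 24 h and 3087 from 8 h to 72 h. Over all genes, 0.648% were called from 8 h to 24 h and 2.81% from 8 h to 72 h. From 8 h to 72 h in DMSO all 6 had values below 0, from -0.17 (NCOA3) to -0.07 (CREBBP), and the DMSO cultures at 72 h are the reference of most calls above. NCOA3 in DMSO was 35.7 ± 2.71, 36.4 ± 4.903 and 31.1 ± 5.34 CPM at 8, 24 and 72 h, and with enzalutamide it was 47.05 ± 2.100, 48.98 ± 3.48 and 55.8 ± 4.83 CPM. Without DMSO 72 h replicate 2 the DMSO change of NCOA3 was -0.34 (adjusted p 0.038).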

How the data were processed

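RNA of 36 LNCaP cultures was sequenced as paired reads of 150 bases from TruSeq libraries, per the labels' protocols. The authors deposited counts per gene. Per the file headers, featureCounts 2.0.0 produced them on Ensembl release 99 of GRCh38 without strand, and the submitters' processing notes also name STAR, DESeq2 and hg38. Here all libraries entered 1 edgeR 4.0.16 quasi-likelihood fit (TMM, filterByExpr, 12 group means, 15744 genes), with Benjamini-Hochberg adjustment per contrast over all genes and a threshold of 0.05, for 23 contrasts. Levels are TMM-scaled CPM, and per kilobase they use the deposited exon length. Alternatives were RLE, DESeq2 1.42.0, no filter, the compared libraries alone, a replicate block, a lane term, each library left out and, added after seeing the data, a long-transcript covariate. On simulated data for enzalutamide at 24 h (15478 genes), 83% of changes of 0.5 and 98% of changes of 1 (log2) were recovered, with 9 false calls. Each gene was drawn on its own, without shifts shared by the genes of a library, and changes below 0.5 were not simulated. The recovery of smaller calls among the 6 genes is therefore not known from it. The members and gene lists were chosen with earlier results of these data known. The genes named are the 6 members, check genes, up to 3 called genes per list and contrast by size, overlapping genes and those of most similar pattern, and some eligible genes are not reported here.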

Additional observations from a re-analysis of the deposited data

Results flagged for a closer look

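For 2 of the 6 genes the effect of a treatment differed between 8 h and 72 h by the interaction term of the edgeR fit, NCOA3 under enzalutamide, where 10.2% of all genes were called, and NCOA3 and NCOA1 under the combination, where 22.9% were. The enzalutamide effect on NCOA3 was larger at 72 h by 0.41 ± 0.14 on the log2 scale (adjusted p 0.048), from 0.38 at 8 h to 0.79 at 72 h, and without DMSO 72 h replicate 1 it was 0.33 (adjusted p 0.12). The combination effect was larger at 72 h by 0.62 ± 0.14 for NCOA3 (adjusted p 0.0010), from 0.36 to 0.98, and by 0.48 ± 0.12 for NCOA1 (adjusted p 0.0024), from -0.07 to 0.41. With the long-transcript level in the fit these became 0.18 (adjusted p 0.47), 0.31 (adjusted p 0.12) and 0.27 (adjusted p 0.14). The DMSO cultures at 72 h, the lowest of the 12 groups for both genes, enter all 3 values.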

How the results depend on the processing

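Of 138 pairs of gene and contrast, 33 were called, and 10 of these were called in the same direction under every alternative, among them NCOA3 with enzalutamide at 24 and 72 h and with the combination at 72 h, and NCOR1 with the combination at 24 h. RLE factors, DESeq2, the replicate block and the lane term moved no count of called members over 1.5 times. The mean correlation of deviations was 0.0197 for libraries sharing a replicate number and -0.0097 for others. In 17 of 36 libraries the number with the highest mean correlation, over libraries of other groups, was their own. These values do not settle whether the numbers pair the cultures, and the replicate block is a term only in that alternative. Libraries sharing a lane had a mean of 0.0948 against -0.0473 for others, and the lane is a term only in the lane alternative. With the replicate block the counts of the 6 called stayed at 1, 2 and 5 for enzalutamide, 4 for olaparib at 72 h and 2, 3 and 6 for the combination. When only the libraries compared were fitted, the counts were 3 for enzalutamide at 72 h, 0 for olaparib at 72 h, 1 and 5 for the combination at 8 and 24 h, 1 each for the combination against enzalutamide at 24 and 72 h, and 0 for the change of the enzalutamide effect. Without the filter on low counts the combination against enzalutamide at 72 h gave 1. With the long-transcript term, enzalutamide gave 2 at 8 h and 3 at 72 h, olaparib 0 at 72 h, the combination 1 at 24 h and 2 at 72 h, the combination against olaparib 3 at 8 h, and the changes of the enzalutamide and combination effects 0 and 1. That 1 was NCOR1 (-0.29, adjusted p 0.0095), which was not called without the term (-0.04, adjusted p 0.81). NCOA3 and NCOA1, called for the change of the combination effect without the term, were both lost. Under that term EP300 changed sign at 72 h for the combination against DMSO (-0.15, adjusted p 0.30) and against olaparib (-0.27, adjusted p 0.0070). The cause was not tested.

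Leaving out 1 library at a time, the counts ran from 0 to 1 for enzalutamide at 8 h, 1 to 2 at 24 h and 3 to 5 at 72 h, 1 to 4 for olaparib at 72 h, 0 to 2 for the combination at 8 h, 0 to 1 for the combination against olaparib at 8 h and 1 to 2 at 24 h, 0 to 2 for the change of the enzalutamide effect, and 0 to 1 for DMSO at 72 h against 8 h. An uncalled value changed sign in 114 fits. Of the counts over all genes behind the shares given, that for enzalutamide at 72 h went from 4287 to 1956 with only the libraries compared, olaparib at 72 h from 2819 to 639, olaparib at 8 h from 208 to 72, and the combination at 72 h from 6699 to 4199, and with the long-transcript term to 3494. In DMSO at 72 h against 8 h it went from 442 to 3 and 10 under these 2 settings. Depth limits NCOA3 most, with 122 to 767 counts per library.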
